A study of Mus musculus with 6 samples.

Results

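DNA replication and S phase genes are followed here through the maturation of mouse mast cells on fibroblasts. The set holds 41 named genes of the replication machinery, chosen by symbol with no threshold on a measured value, out of 29597 genes on the array. All 41 were found, through 56 probes whose names matched, and each gene is represented by its brightest probe. On all 6 arrays every member but Ccne2 was well above background. The 41 genes were placed in 9 groups by role: origin licensing, the MCM2-7 helicase, helicase activation, polymerases and primase, the sliding clamp and its loader, Okazaki fragment joining, nucleotide supply, chromatin behind the fork, and regulators of the step from G1 to S phase.

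Messenger RNA was measured on 6 single-colour Agilent arrays, 1 for each of 6 groups, with RNA pooled from 3 samples per group. All mast cells were grown from mouse bone marrow (BMMCs) in interleukin-3 at 10 ng/ml. Those kept without fibroblasts carried Pla2g3+/+ or Pla2g3-/- by label, and the same 2 genotypes were also kept for 4 days on wild-type Swiss 3T3 cells, an established mouse fibroblast line, with stem cell factor at 100 ng/ml. In the last 2 groups, wild-type mast cells were kept in the same way on Lpar1+/+ or on Lpar1-/- Swiss 3T3 fibroblasts. The Lpar1-/- fibroblasts came from CRISPR/Cas9 cutting next to exon 3 followed by single-cell cloning, so they are a clonal line, and the sources used here give no number of clones. The product of Pla2g3 is a secreted phospholipase A2, and that of Lpar1 is a receptor for lysophosphatidic acid. The sources used here do not say if stem cell factor was also added to mast cells without fibroblasts, so stem cell factor and coculture cannot be told apart. They do not state the age of the donor animals.

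Replication starts in G1 phase, when the origin recognition complex, Cdc6 and Cdt1 load the ring-shaped MCM2-7 helicase onto DNA. At the entry into S phase, cyclin E with its kinase and factors such as Cdc45, the GINS complex and Mcm10 turn the loaded rings into running helicases, and polymerases held on DNA by the clamp Pcna then copy both strands. Many genes of this machinery are known targets of E2F transcription factors, and their messenger RNA is low in cells that have left the cell cycle. Mast cells grown in interleukin-3 divide in culture, whereas mature tissue mast cells divide rarely.

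The upstream sequence of 6 members is shown because members moved together across the cocultures, as described for each role, and because the E2F binding word is the classic shared element of these genes. The sequences come from RefSeq on GRCm38.p6 and run over the 250 bases before the annotated start of the gene, 5′ to 3′ on the strand of the gene. Capitals mark a match to TTTCCCGC, TTTCGCGC, TTTGCCGC or TTTGGCGC on either strand. The genes were taken in order of the size of their difference between the genotype labels in coculture, among members with a match wholly within these 250 bases.
Orc1 (chr4:108579204-108579453, + strand): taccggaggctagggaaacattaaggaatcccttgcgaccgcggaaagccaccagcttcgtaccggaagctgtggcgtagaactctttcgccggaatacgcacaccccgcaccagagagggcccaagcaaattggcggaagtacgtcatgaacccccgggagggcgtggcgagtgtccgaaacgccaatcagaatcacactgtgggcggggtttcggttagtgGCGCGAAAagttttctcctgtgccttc
Mcm5 (chr8:75109259-75109508, + strand): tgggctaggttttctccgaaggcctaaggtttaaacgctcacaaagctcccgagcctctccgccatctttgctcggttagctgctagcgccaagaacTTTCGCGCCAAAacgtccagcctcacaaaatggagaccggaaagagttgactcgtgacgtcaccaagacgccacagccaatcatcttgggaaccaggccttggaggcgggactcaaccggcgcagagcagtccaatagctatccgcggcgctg
Cdc6 (chr11:98907901-98908150, + strand): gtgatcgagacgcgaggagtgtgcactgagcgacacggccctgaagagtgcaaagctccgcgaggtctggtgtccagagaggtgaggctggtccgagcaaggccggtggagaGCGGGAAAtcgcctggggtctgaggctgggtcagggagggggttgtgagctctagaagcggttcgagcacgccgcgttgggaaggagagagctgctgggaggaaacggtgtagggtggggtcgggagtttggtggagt
Uhrf1 (chr17:56304063-56304312, + strand): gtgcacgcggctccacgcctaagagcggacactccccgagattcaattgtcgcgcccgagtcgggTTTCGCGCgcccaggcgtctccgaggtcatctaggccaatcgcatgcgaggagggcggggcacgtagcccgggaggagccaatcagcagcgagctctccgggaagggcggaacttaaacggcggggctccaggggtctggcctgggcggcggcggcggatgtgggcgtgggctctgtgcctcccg
Pola1 (chrX:93632156-93632405, - strand): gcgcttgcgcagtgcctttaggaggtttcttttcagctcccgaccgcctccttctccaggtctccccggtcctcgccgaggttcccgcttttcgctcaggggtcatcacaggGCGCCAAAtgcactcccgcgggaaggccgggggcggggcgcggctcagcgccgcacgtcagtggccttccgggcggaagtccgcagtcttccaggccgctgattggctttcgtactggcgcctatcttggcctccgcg
Rfc3 (chr5:151651209-151651458, - strand): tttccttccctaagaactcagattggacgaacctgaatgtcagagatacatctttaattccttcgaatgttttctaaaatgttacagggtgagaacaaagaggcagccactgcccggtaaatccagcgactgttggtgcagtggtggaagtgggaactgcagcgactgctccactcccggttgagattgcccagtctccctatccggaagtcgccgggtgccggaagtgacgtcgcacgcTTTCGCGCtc
In Orc1 the match began at position -27 from the start, on the opposite strand to the gene, and in Rfc3 at position -10. In Mcm5 matches on opposite strands began at positions -153 and -149 and overlapped. In Cdc6 and Pola1 the match began at position -138, and in Uhrf1 at position -185.

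A promoter window was listed for 32 of the 41 members, which gave 37 windows of 300 bases, from 250 before to 50 after the start. An E2F word occurred in 13 of these 37 windows (35.1%), against 744 of 32851 windows (2.26%) over all genes in the same table. Among windows that also held a GC box (GGGCGG or CCGCCC), 10 of 28 member windows (35.7%) and 4.23% of all windows held an E2F word. The word CCAAT or its reverse ATTGG occurred in 54.1% of member windows and in 37.4% of all windows, and the GC box in 75.7% and 35.7%. The cell cycle homology word TTTGAA, or TTCAAA on the other strand, occurred in 10.8% of member windows and 17.9% of all windows. A match to such a word is a description of the letters and does not show binding. Members with an E2F word were Cdc6, Cdt1, Gins3, Lig1, Mcm3, Mcm5, Mcm6, Mcm7, Orc1, Pola1, Pold1, Rfc3 and Uhrf1. Their median log2 difference between the genotype labels in coculture was -1.69, and that of the 19 listed members without such a word was -1.52. The ranges largely overlapped, from -3.13 to -0.37 with the word and from -2.90 to -0.48 without it. With fibroblast Lpar1 the medians were -1.76 and -1.71, and with coculture in Pla2g3+/+ cells 1.21 and 1.00.

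Levels are given as log2 of the processed scanner intensity relative to the 75th percentile of the same array, so 0 is the level of that percentile, and differences are log2 differences of these levels between arrays. Brightness differs between probes, so levels of different genes are not compared. A gene was counted as higher or lower where it differed by at least 2-fold. Each group had 1 array, so no difference has a replicate check, and no test is given. The pair of wild-type cocultures (Pla2g3+/+ cells on wild-type fibroblasts, and wild-type cells on Lpar1+/+ fibroblasts) serves as the nearest thing to a repeat. Their differences over all genes had a standard deviation of 0.29, and 95% of them lay within 0.62. The error that the scanner software models for the difference of a member between 2 arrays was 0.20 both at the lowest and at the median. It was thus nearly the same for many members, and it does not measure the spread of repeats.

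The 75th percentile of intensity ran from 1230 to 1520 over the 6 arrays, and the share of spots well above background from 70.7% to 80.4%. The Pla2g3 probe went against its label, being 113-fold higher under the Pla2g3-/- label without fibroblasts and 44.4-fold higher in coculture. The place of the probe relative to the deleted part of the gene was not examined, so it neither checks nor settles the label. An exchange of the Pla2g3 labels was not tested either, and it would turn the sign of each Pla2g3 label difference. These arrays are called by their label throughout. Lpar1 was no lower on the array labelled Lpar1-/- (-3.89) than on the array labelled Lpar1+/+ (-4.14). Its level was higher still on the arrays without fibroblasts, and the mast cells on both Lpar1 arrays were wild type. The bulk level of Lpar1 therefore neither checks nor settles the fibroblast label. The place of the Lpar1 probe relative to the cut was not examined, and these arrays too are called by their label. The arrays without fibroblasts lay on one slide and the 4 cocultures on another, so the effect of the slide and that of coculture cannot be told apart, while comparisons of Pla2g3 label and of fibroblast Lpar1 lie within a slide. All 14 mast cell markers were well above background on all 6 arrays. Fibroblast markers summed to 3.87 and 3.33 (scaled signal, where 1 is the 75th percentile) without fibroblasts. They summed to 38.99 and 41.03 in the wild-type cocultures, 17.5 in the coculture labelled Pla2g3-/- and 37.9 on Lpar1-/- fibroblasts, so every coculture array held fibroblast RNA and the one labelled Pla2g3-/- held less than the others. Neutrophil markers summed to 76.4 for Pla2g3+/+ cells without fibroblasts and 10.0 to 28.3 on the other arrays, and macrophage markers had their highest sums in the coculture labelled Pla2g3-/- (65.7) and on Lpar1-/- fibroblasts (49.1). Cx3cr1 was the brightest macrophage marker on those 2 arrays (levels 5.64 and 5.14), whereas the median macrophage marker was lower there (-4.10 and -3.09) than in the wild-type cocultures (-2.30 and -2.39). Their part in any of the differences was not tested. In such bulk RNA, fewer cells of a type and less RNA per cell cannot be told apart.

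The replication genes as a whole were highest in both wild-type cocultures and lowest in the coculture labelled Pla2g3-/- and on Lpar1-/- fibroblasts, with mast cells without fibroblasts in between. The median level of the 41 genes was 0.98 and 1.20 without fibroblasts (Pla2g3+/+ and Pla2g3-/- label), 2.01 and 1.84 in the wild-type cocultures, 0.27 in the coculture labelled Pla2g3-/- and 0.11 on Lpar1-/- fibroblasts. Their summed scaled signal was 148, 159, 269, 251, 127 and 116 in that order. In 31 of the 41 genes each wild-type coculture lay above both arrays without fibroblasts and each of the other 2 cocultures lay below both, an order that 7.40% of all genes showed. Both wild-type cocultures lay above the other 2 cocultures in 39 of 41 genes (36.5% of all genes), the exceptions being Prim2 and Rfc2. Both also lay above both arrays without fibroblasts in 38 of 41 genes (47.6% of all genes), and the other 2 cocultures lay below both arrays without fibroblasts in 33 of 41 (28.0% of all genes).

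**Figure D1:**
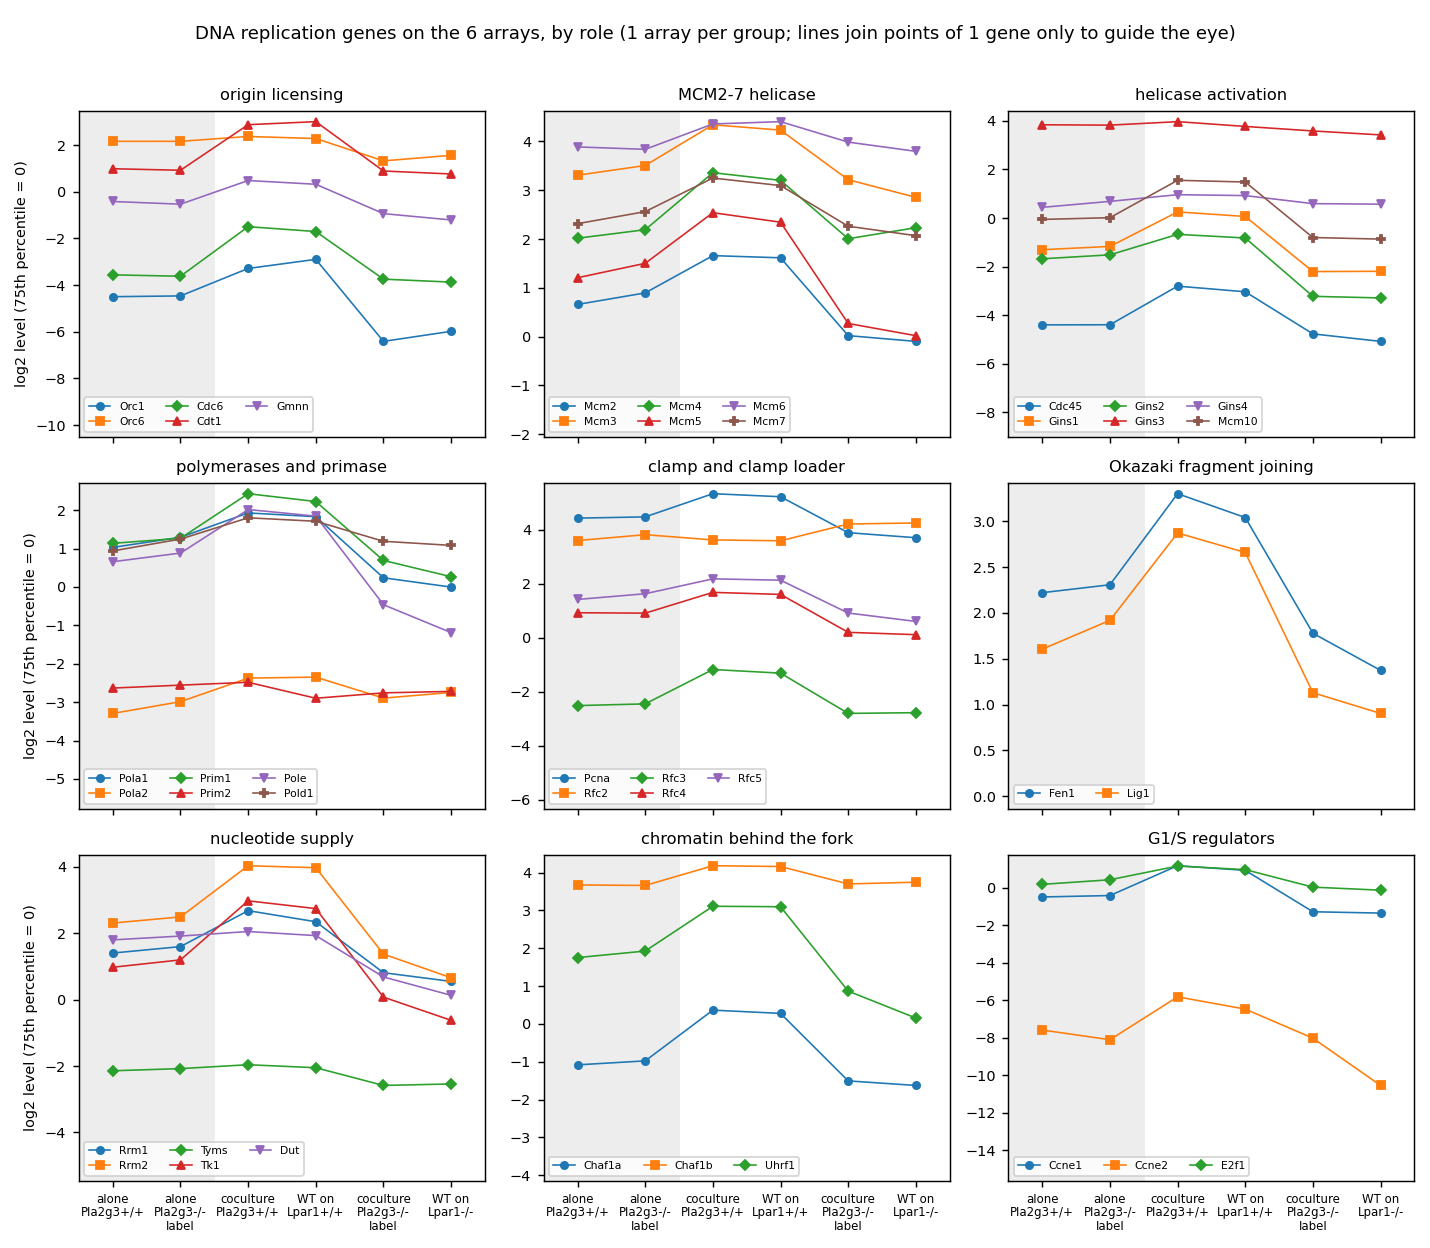
Levels of the 41 replication genes on the 6 arrays, by role, as log2 of intensity relative to the 75th percentile of each array, with 1 array per group, lines only to guide the eye and shading over the arrays without fibroblasts. In most roles the points of the wild-type cocultures lie above those of the arrays without fibroblasts, and the points of the other cocultures lie lowest.

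In Pla2g3+/+ mast cells, coculture with wild-type fibroblasts asked how the move onto fibroblasts and stem cell factor relates to expression. Of the 41 genes, 23 were at least 2-fold higher in coculture and 0 were lower, where 13.0% of all compared genes were higher and 7.51% lower. The median difference was 1.03, against 0.13 over all genes, and all 41 differences were above 0, where 13260 of 22608 genes were. The largest were in Cdc6, Tk1 and Cdt1, and the smallest in Rfc2, Gins3 and Prim2. In mast cells labelled Pla2g3-/- the same coculture gave 0 higher and 10 lower of the 40 genes compared, where 11.4% of all genes were higher and 7.29% lower. The median was -0.55 (0.12 over all genes), with 36 of 40 differences below 0, where 9597 of 22341 genes were. The 10 lower genes were Orc1, Mcm5, Gins1, Gins2, Pola1, Pole, Rrm2, Tk1, Dut and Uhrf1. Of these, 8 (Orc1, Mcm5, Gins1, Gins2, Pole, Rrm2, Tk1 and Uhrf1) were also higher in coculture in Pla2g3+/+ cells, out of 23 higher there. Over all genes, 116 of 21818 were higher in the former and lower in the latter.

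Without fibroblasts, the differences between the Pla2g3 labels were small. None of the 41 was 2-fold higher or lower, where 0.414% of all genes were higher and 1.58% lower, and the median difference was 0.13. The largest positive differences, each of 0.31, were in Lig1, Pola2 and Pold1. The lowest were in Ccne2 (-0.52, dim under the Pla2g3-/- label), Gmnn (-0.11) and Cdt1 (-0.07). Neutrophil markers differed on these arrays, with 13 of 15 compared lower under the Pla2g3-/- label, and their part in the replication gene values was not tested.

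In coculture, the array labelled Pla2g3-/- had 31 of the 41 replication genes at least 2-fold lower than the Pla2g3+/+ array and 0 higher, where 9.10% of all genes were higher and 10.4% lower. The median difference was -1.62, against -0.08 over all genes, and 40 of 41 differences were below 0. On Lpar1-/- fibroblasts, wild-type mast cells had 30 of 41 genes lower than on Lpar1+/+ fibroblasts and 0 higher, where 11.3% of all genes were higher and 8.84% lower, with a median of -1.71 (-0.05 over all genes). These 2 comparisons share no array, and 29 genes were lower in both, out of 31 in the first and 30 in the second. Over all genes, 1538 of 22421 were lower in both, where 2340 were lower in the first and 2169 in the second. Orc6 and Mcm4 passed 2-fold under the Pla2g3 label alone, and Mcm7 did so with fibroblast Lpar1 alone. Across 40 genes, without Ccne2, which has only a bound, the differences of both comparisons had a Pearson correlation of 0.969 (Spearman 0.973), against 0.862 over 20720 genes, where all points come from the same 4 arrays and a common scaling. For each of these 40 genes the 2 differences lay within 2-fold of each other, and the share of all genes that did so was not counted. The Pla2g3 label difference minus the fibroblast Lpar1 difference ran from -0.45 in Prim2 to 0.70 in Uhrf1.

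**Figure D2:**
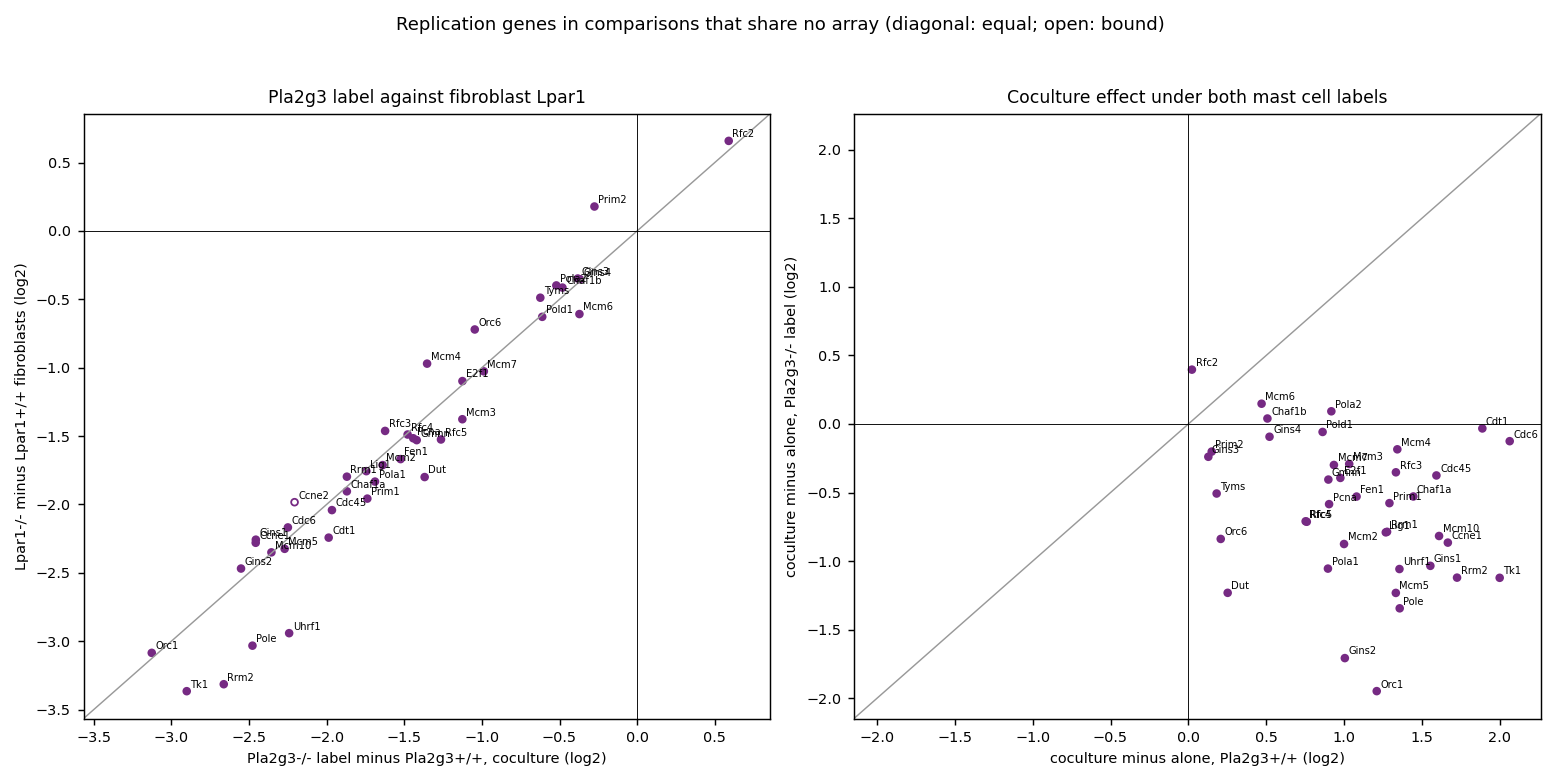
Log2 difference with fibroblast Lpar1 (Lpar1-/- minus Lpar1+/+, vertical axis) against the log2 difference with the Pla2g3 label in coculture (Pla2g3-/- label minus Pla2g3+/+, horizontal axis), on the left, and the coculture difference in cells labelled Pla2g3-/- against that in Pla2g3+/+ cells on the right, 1 point per replication gene, 1 array per group, an open point for the bound of Ccne2 and the grey diagonal for equal values. On the left the points lie along the diagonal, with Rfc2 above 0 on both axes, and on the right most lie right of 0 and below 0.

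**Figure D3:**
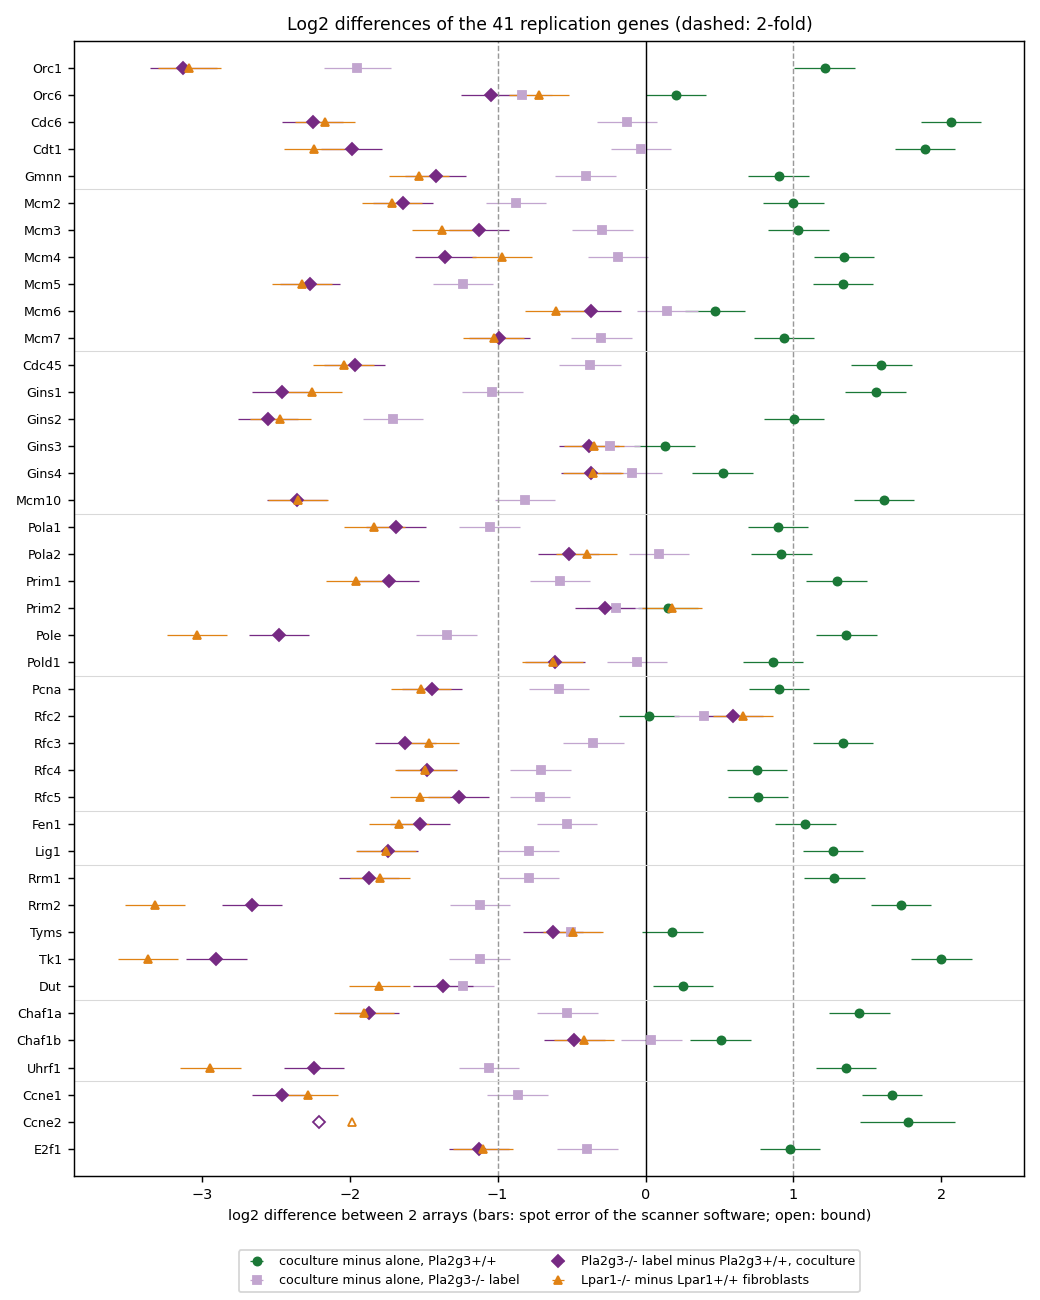
Log2 difference of each of the 41 replication genes in 4 comparisons, with 1 array per group, bars for the spot error given by the scanner software, open symbols for bounds, dashed lines at 2-fold and grey lines between roles. Differences with the Pla2g3 label in coculture (diamonds) and with fibroblast Lpar1 (triangles) lie mostly left of the lower limit, and coculture differences in Pla2g3+/+ cells (circles) lie at or right of 0.

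Origin licensing genes held some of the largest differences. Orc1, the largest subunit of the origin recognition complex and the one whose level varies through the cell cycle (probe on mm9 at chr4:108284772-108285679), had levels of -4.49 and -4.46 without fibroblasts, -3.28 and -2.89 in the wild-type cocultures, -6.41 in the coculture labelled Pla2g3-/- and -5.98 on Lpar1-/- fibroblasts. The 3 pairs of arrays did not overlap. Orc1 was 2.31-fold higher in coculture in Pla2g3+/+ cells and 3.86-fold lower in coculture in cells labelled Pla2g3-/-. It was 8.73-fold lower under the Pla2g3-/- label in coculture and 8.49-fold lower on Lpar1-/- fibroblasts. Cdc6, which helps load the helicase (chr11:98782986-98783045), stood at -3.56 and -3.62 without fibroblasts, -1.49 and -1.70 in the wild-type cocultures, -3.74 in the coculture labelled Pla2g3-/- and -3.87 on Lpar1-/- fibroblasts. It had the largest difference of all 41 genes with coculture in Pla2g3+/+ cells, 4.18-fold, and in the cells labelled Pla2g3-/- coculture and its absence differed by -0.13. Cdt1, the partner of Cdc6 in loading, followed the same course, with 0.99 and 0.92 without fibroblasts, 2.88 and 3.01 in the wild-type cocultures, and 0.89 and 0.77 in the coculture labelled Pla2g3-/- and on Lpar1-/- fibroblasts. In both Cdc6 and Cdt1 the wild-type cocultures thus stood alone, and the 4 other arrays lay close together. Gmnn, the inhibitor of Cdt1, had -0.41 and -0.53 without fibroblasts, 0.49 and 0.32 in the wild-type cocultures, and -0.93 and -1.21 in the other 2. A second, dimmer Gmnn probe differed by -0.42 under the Pla2g3 label in coculture and by 0.06 with fibroblast Lpar1, so Gmnn is uncertain. The smallest difference of the role was in Orc6, a small subunit of the origin recognition complex, at 2.16 and 2.17 without fibroblasts, 2.37 and 2.28 in the wild-type cocultures, and 1.33 and 1.56 in the other 2. Orc6 was 2.06-fold lower under the Pla2g3-/- label and 1.65-fold lower with fibroblast Lpar1-/-.

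Of the 6 subunits of the MCM2-7 ring, the helicase that opens the double strand, 4 were lower in each of the 2 comparisons. Mcm5 (chr8:77651350-77651410) had levels of 1.21 and 1.502 without fibroblasts, 2.54 and 2.34 in the wild-type cocultures, 0.27 in the coculture labelled Pla2g3-/- and 0.02 on Lpar1-/- fibroblasts. It was 4.82-fold and 5.01-fold lower in these 2 cocultures than in the matching wild-type ones. Mcm6 (chr1:130228178-130228237), which stands next to the other subunits in the same ring, had 3.89 and 3.84 without fibroblasts, 4.36 and 4.40 in the wild-type cocultures, and 3.99 and 3.80 in the other 2. Its differences were 1.29-fold and 1.52-fold, both downward, and neither passed the limit. Mcm2, Mcm3 and Mcm4 were 3.11-fold, 2.18-fold and 2.55-fold lower under the Pla2g3-/- label, and Mcm7, at -0.99, stopped just short of the limit. The spread between Mcm5 and Mcm6 was 1.90 on the log2 scale, although the 6 proteins act in 1 ring in equal numbers.

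Factors that turn the loaded ring into a running helicase were split in a similar way. Gins2, a subunit of the GINS complex (chr8:123112627-123112686), had levels of -1.68 and -1.51 without fibroblasts, -0.67 and -0.82 in the wild-type cocultures, -3.22 in the coculture labelled Pla2g3-/- and -3.29 on Lpar1-/- fibroblasts. It was 5.86-fold and 5.53-fold lower in the latter pair. Gins1 was 5.49-fold and 4.78-fold lower, so these 2 GINS subunits moved alike. Gins4 had 0.44 and 0.69 without fibroblasts, 0.96 and 0.93 in the wild-type cocultures, and 0.59 and 0.57 in the other 2, with differences of -0.37 and -0.35. Gins3 had 3.84 and 3.83 without fibroblasts, 3.97 and 3.77 in the wild-type cocultures, and 3.59 and 3.42 in the other 2. The 4 GINS subunits act as 1 complex, and their differences under the Pla2g3 label spanned 2.18 on the log2 scale. Cdc45, which joins GINS on the helicase, was 3.91-fold and 4.12-fold lower, and Mcm10, which helps start it, 5.12-fold and 5.10-fold lower.

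Among polymerases and primase, 3 of 6 genes passed the limit downward in each of the 2 comparisons. Pole, the catalytic subunit of the leading strand polymerase epsilon (chr5:110766375-110766434), had levels of 0.66 and 0.88 without fibroblasts, 2.01 and 1.84 in the wild-type cocultures, -0.46 in the coculture labelled Pla2g3-/- and -1.19 on Lpar1-/- fibroblasts. It was 5.57-fold and 8.18-fold lower there. A second Pole probe differed by -2.60 and -2.26, and a dim one by 0.22 and 0.69, so the probes of Pole disagreed. Pola1, the catalytic subunit of polymerase alpha, was 3.22-fold and 3.56-fold lower, and Prim1, the catalytic primase subunit, 3.33-fold and 3.88-fold lower. Their partners in the same complex differed less. Pola2 had -3.29 and -2.99 without fibroblasts, -2.37 and -2.35 in the wild-type cocultures, and -2.89 and -2.75 in the other 2. Prim2, the other primase subunit, had -2.63 and -2.56 without fibroblasts, -2.48 and -2.90 in the wild-type cocultures, and -2.76 and -2.72 in the other 2, with no order between the groups. Its second probe was lower by 1.11 and 1.42, so Prim2 is uncertain. Pold1, the catalytic subunit of polymerase delta, had 0.94 and 1.25 without fibroblasts, 1.80 and 1.71 in the wild-type cocultures, and 1.19 and 1.08 in the other 2.

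Rfc2 was the exception among all 41 genes. The clamp Pcna was 2.72-fold and 2.86-fold lower in the coculture labelled Pla2g3-/- and on Lpar1-/- fibroblasts, and the clamp loader subunits Rfc4 and Rfc5 were 2.79-fold and 2.40-fold lower under the label. Rfc3, another loader subunit, had -2.51 and -2.45 without fibroblasts, -1.17 and -1.31 in the wild-type cocultures, and -2.80 and -2.77 in the other 2, so the wild-type cocultures stood more than 1 unit above all other arrays. Rfc2, a subunit of the same loader (chr5:135073809-135073868), had 3.60 and 3.81 without fibroblasts, 3.62 and 3.59 in the wild-type cocultures, 4.21 in the coculture labelled Pla2g3-/- and 4.24 on Lpar1-/- fibroblasts. It was higher there by 0.59 and 0.66, below the 2-fold limit, and was the only member above 0 in both comparisons. The second, dimmer probe of Rfc5 differed by 0.43 and -0.39, where the main probe was lower in both.

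Both genes of Okazaki fragment joining passed the limit in both comparisons. Fen1, the flap nuclease, had 2.22 and 2.31 without fibroblasts, 3.30 and 3.04 in the wild-type cocultures, and 1.78 and 1.37 in the other 2. Lig1, the ligase that seals the fragments, had 1.60 and 1.92 without fibroblasts, 2.87 and 2.66 in the wild-type cocultures, and 1.13 and 0.90 in the other 2. Both genes were thus highest in the wild-type cocultures and lowest in the other 2, with no overlap, and Fen1 was 2.87-fold and 3.18-fold lower while Lig1 was 3.35-fold and 3.38-fold lower.

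Tk1 and Rrm2, of the nucleotide supply, had the largest measured differences of single members with fibroblast Lpar1, where Ccne2 has only a bound. Tk1, the thymidine kinase of the salvage pathway (chr11:117676845-117676904), had levels of 0.98 and 1.20 without fibroblasts, 2.98 and 2.74 in the wild-type cocultures, 0.08 in the coculture labelled Pla2g3-/- and -0.62 on Lpar1-/- fibroblasts. It was 4.00-fold higher in coculture in Pla2g3+/+ cells, 7.47-fold lower under the Pla2g3-/- label in coculture and 10.3-fold lower on Lpar1-/- fibroblasts. Rrm2, the S phase subunit of ribonucleotide reductase, had 2.31 and 2.49 without fibroblasts, 4.03 and 3.97 in the wild-type cocultures, 1.37 in the coculture labelled Pla2g3-/- and 0.66 on Lpar1-/- fibroblasts, a difference of 6.33-fold and 9.95-fold. Its partner Rrm1 had 1.40 and 1.60 without fibroblasts, 2.68 and 2.35 in the wild-type cocultures, and 0.81 and 0.55 in the other 2. For Tk1, Rrm2 and Rrm1 the 3 pairs of arrays did not overlap. Dut, which removes dUTP, was 2.58-fold and 3.48-fold lower. Tyms, thymidylate synthase, had -2.14 and -2.08 without fibroblasts, -1.96 and -2.05 in the wild-type cocultures, and -2.58 and -2.54 in the other 2, and it did not pass the limit.

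Of the 3 chromatin genes, Chaf1a and Uhrf1 passed the limit and Chaf1b did not. Chaf1a, the large subunit of the chromatin assembly factor that places histones behind the fork, had -1.08 and -0.98 without fibroblasts, 0.36 and 0.28 in the wild-type cocultures, and -1.51 and -1.63 in the other 2. Chaf1b, its partner subunit, had 3.67 and 3.66 without fibroblasts, 4.18 and 4.16 in the wild-type cocultures, and 3.70 and 3.74 in the other 2. Chaf1a was 3.65-fold and 3.74-fold lower, and the differences of Chaf1b were -0.48 and -0.41. Uhrf1, which guides the copying of DNA methylation, had 1.75 and 1.93 without fibroblasts, 3.11 and 3.10 in the wild-type cocultures, 0.87 in the coculture labelled Pla2g3-/- and 0.16 on Lpar1-/- fibroblasts. It was 4.73-fold and 7.68-fold lower, the widest gap between both comparisons among the 40 genes measured in both (0.70 on the log2 scale).

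All 3 regulators of the G1 to S step were at least 2-fold lower in both comparisons. Ccne1, cyclin E1, had -0.48 and -0.41 without fibroblasts, 1.19 and 0.94 in the wild-type cocultures, and -1.27 and -1.34 in the other 2, and was 5.49-fold and 4.86-fold lower. E2f1, a transcription factor of S phase genes, had 0.19 and 0.44 without fibroblasts, 1.17 and 0.98 in the wild-type cocultures, and 0.04 and -0.12 in the other 2, and was 2.18-fold and 2.14-fold lower. Cyclin E2 was near the detection limit. Ccne2 was well above background on the array of Pla2g3+/+ cells without fibroblasts (-7.58) and in the wild-type cocultures (-5.81 and -6.47), and not on the other 3 arrays (-8.10, -8.02 and -10.54). On Lpar1-/- fibroblasts it was at least 3.95-fold lower, counted against the lowest signal well above background there. Under the Pla2g3-/- label in coculture it was 4.62-fold lower, counted against the dim probe's own signal, which is no firm limit.

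Subunits outside the 41 members completed the picture of unequal movement within complexes. In the origin recognition complex, Orc2 differed by -0.78 under the Pla2g3 label in coculture, Orc3 by 0.09, Orc4 by 0.32 and Orc5 by 0.80, against -3.13 for Orc1. In polymerase epsilon, the subunit Pole2 differed by -1.54, Pole3 by -0.18 and Pole4 by -0.62. None of the 3 subunits of RPA, the protein that coats single strands, passed the limit, with differences from -0.60 to -0.03. Some subunits of the origin recognition complex, polymerase epsilon and the clamp loader thus passed the limit while others of the same complex did not, which holds for both comparisons.

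Other genes of the pathway were read from lists separate from the 41, and the medians of these lists ranged from near 0 to below that of the 41 genes. Of 54 further replication genes, 22 were lower and 1 higher under the Pla2g3-/- label in coculture (median -0.75), and 23 were lower and 2 higher on Lpar1-/- fibroblasts (median -0.73). Clspn, an adaptor of the fork checkpoint, was 6.13-fold and 13.5-fold lower. Asf1b, a histone chaperone, was 6.31-fold and 9.98-fold lower, whereas its paralog Asf1a was 2.68-fold and 3.85-fold higher. Of 25 genes of G1 and S phase control, 11 were lower in each comparison, with 0 and 1 higher. Myc, a growth regulator, had 2.15 and 2.20 without fibroblasts, 1.95 and 1.85 in the wild-type cocultures, and -0.89 and -1.03 in the other 2. It differed little between the wild-type cocultures and the arrays without fibroblasts, unlike the replication genes, and was 7.18-fold and 7.34-fold lower in the other 2. All 20 mitosis genes were lower under the Pla2g3-/- label (median -2.28) and 19 of 20 on Lpar1-/- fibroblasts (median -2.52), and Top2a, the mitotic topoisomerase, was 6.79-fold and 10.1-fold lower. Of 15 genes of the fork and damage checkpoint, 5 were lower in each comparison, with medians of -0.27 and -0.02.

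Among the 7 inhibitors of cyclin-dependent kinases, Cdkn1b was the only one past the limit upward in either comparison. It encodes p27, which blocks cyclin E with its kinase, and had 2.80 and 2.84 without fibroblasts, 1.62 and 1.72 in the wild-type cocultures, 3.92 in the coculture labelled Pla2g3-/- and 4.02 on Lpar1-/- fibroblasts. This is the mirror of the order seen in the replication genes, with no overlap between the 3 pairs. Cdkn1b was 2.27-fold lower in coculture in Pla2g3+/+ cells and 2.10-fold higher in coculture in cells labelled Pla2g3-/-. It was 4.92-fold higher in both the coculture labelled Pla2g3-/- and that on Lpar1-/- fibroblasts. Of the 7 inhibitors, 5 were lower under the Pla2g3-/- label and 4 on Lpar1-/- fibroblasts, among them Cdkn1a (3.17-fold and 3.19-fold lower), and Cdkn1c differed by 0.08 and -0.29. Ccnd1, cyclin D1, had -4.36 and -4.63 without fibroblasts, 1.34 and 1.38 in the wild-type cocultures, and -0.48 and -0.07 in the other 2, an order that moves with the fibroblast markers between the arrays with and without fibroblasts. Its source was not tested.

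**Figure D4:**
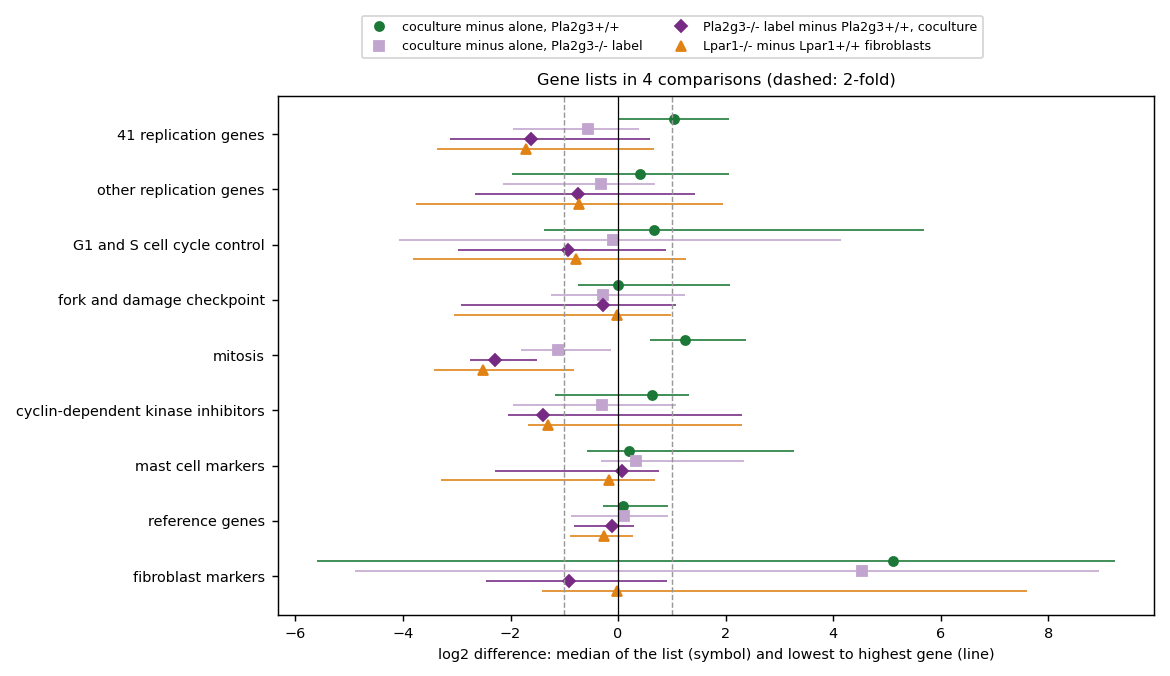
Median log2 difference of each gene list (symbol) and the range from its lowest to its highest gene (line) in 4 comparisons, with 1 array per group and dashed lines at 2-fold. The medians of the replication and mitosis lists lie below 0 with the Pla2g3 label in coculture and with fibroblast Lpar1. The medians of the reference genes lie near 0 in every comparison.

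Markers of other cells and reference genes are set beside these counts. The 14 reference genes had 0 past the limit in every comparison, with medians from -0.26 to 0.12. Of the 14 mast cell markers, 3 were lower in each of the 2 comparisons and 0 higher, with medians of 0.07 and -0.17. Of the fibroblast markers compared, 11 of 23 were lower under the Pla2g3-/- label in coculture (median -0.92). With fibroblast Lpar1 the count was 2 of 24 lower and 7 higher (median -0.03), where the fibroblast marker sum was 37.9 against 41.03. Single markers went both ways there, with Thy1 196-fold and Timp3 8.35-fold higher and Col6a2 2.68-fold lower. With coculture in Pla2g3+/+ cells, Thy1 and Timp3 were 40.7-fold and 48.2-fold lower, where 18 of 23 fibroblast markers were higher and 2 lower. Of 16 neutrophil markers, 7 were lower and 2 higher under the Pla2g3-/- label in coculture (median -0.76), and 1 was lower and 10 higher on Lpar1-/- fibroblasts (median 1.27). Eosinophil markers had 0 lower in both (2 of 5 and 3 of 7 higher). Macrophage markers had 5 lower in each, of 11 and 12 compared, with 1 higher. The part of these other cells in the differences of the replication genes was not tested.

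The change with coculture differed between the labels for most replication genes. The difference between the coculture effects (cells labelled Pla2g3-/- minus Pla2g3+/+ cells), free of a constant offset between slides, passed 2-fold downward for 32 of 41 genes and upward for 0, where 10.4% of all genes were lower and 9.55% higher. Its median was -1.69. It was largest in Orc1 (-3.16), Tk1 (-3.12) and Rrm2 (-2.85), and Rfc2 alone was above 0 (0.37). Both wild-type cocultures differed by 2-fold in none of the 41 genes, where 0.796% of all genes were higher and 0.167% lower, with a median of -0.12 and a range from -0.66 in Ccne2 to 0.39 in Orc1.

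**Figure D5:**
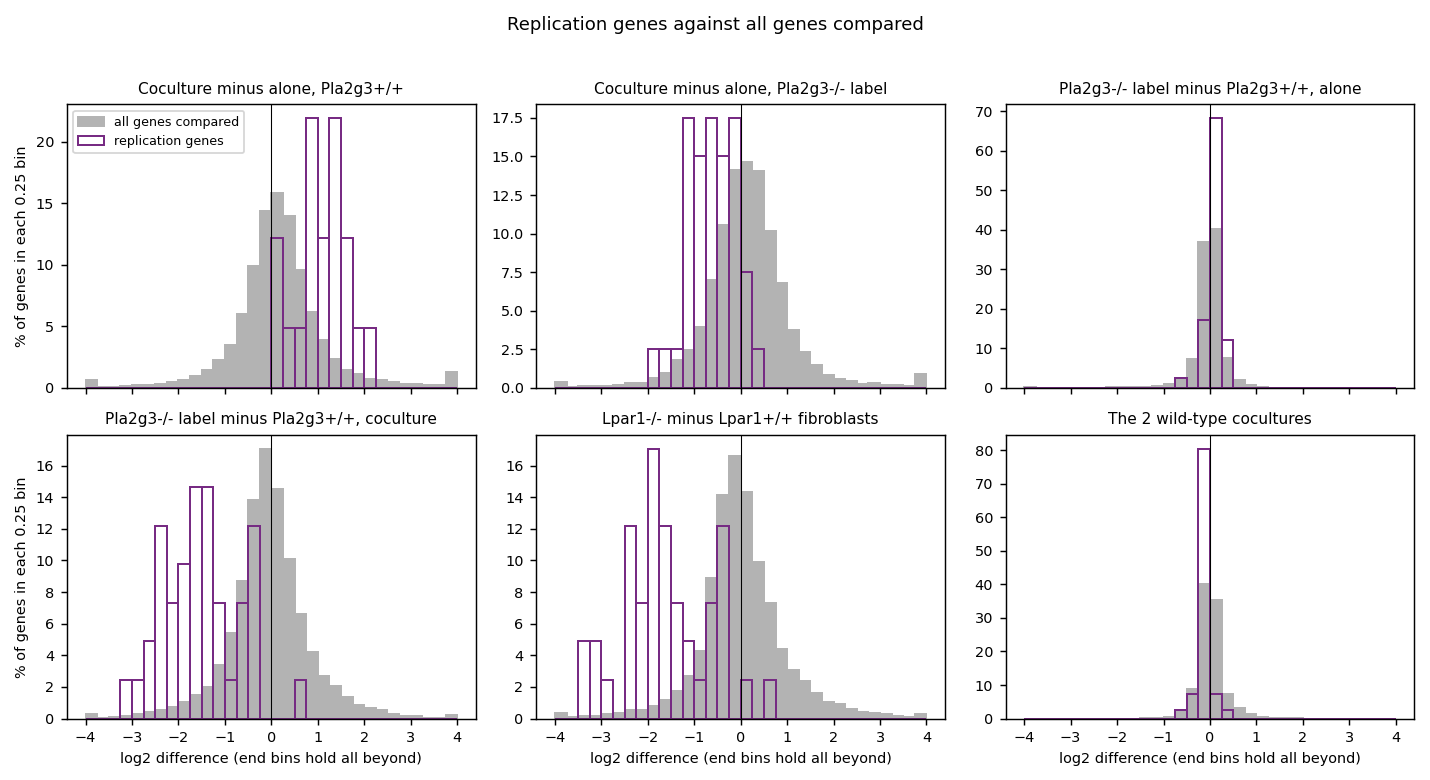
Share of genes in each bin of 0.25 of the log2 difference, for the 41 replication genes (outlined) and all compared genes (grey), in 6 comparisons with 1 array per group, where end bins hold all values beyond. The replication genes are shifted below 0 with the Pla2g3 label in coculture (median -1.62) and with fibroblast Lpar1 (median -1.71), and lie near 0 between the wild-type cocultures (median -0.12).

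Across the 40 genes compared in both, the coculture difference in Pla2g3+/+ cells and that in cells labelled Pla2g3-/- had a Pearson correlation of -0.29 (Spearman -0.32), against 0.565 over 19726 genes, where the points share arrays on the same 2 slides. Of the 12 members with several probes, 10 had probes that shared a sign under the Pla2g3 label in coculture and 9 with fibroblast Lpar1. The exceptions were Pole and Rfc5 in the first, and Gmnn, Pole and Prim2 in the second. With coculture, 10 of the 12 shared a sign in Pla2g3+/+ cells, all but Dut and Gmnn. In cells labelled Pla2g3-/- it was 8 of the 12, all but Cdc6, Pole, Prim2 and Rfc5.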

How the data were processed

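Per the file headers, the authors extracted a spot intensity from each single-colour Cy3 array with Agilent Feature Extraction 12.1.1.1, with background subtraction and spatial detrending, so low values rest partly on a fitted surrogate. The authors' deposited table gives a linear signal, equal to that intensity divided by 1 constant per array (1230.44 to 1520.37), with column medians of 0.0357, 0.0338, 0.0439, 0.0448, 0.0428 and 0.0483 (Pla2g3+/+ and Pla2g3-/- label without fibroblasts, the same in coculture, Lpar1+/+ and Lpar1-/- fibroblasts). Its scale and direction are settled by this match, and no centring was found.

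Each level is the log2 processed intensity relative to the 75th percentile of the 43020 noncontrol spots of its array. Outlier spots (84 to 115 per array) were dropped, no spot was saturated, and the brightest probe by mean over arrays stood for a gene (7555 of 29597 genes had several). With the gene table of GRCm38.p6, 33435 spots were named by accession, symbols or synonyms named 2724 and 12, and 6849 kept the file's name. Probe coordinates are on mm9 as in the files, and their place in exons or untranslated regions is not stated, since no annotation of that build was used here. Genes well above background on either array were compared, and counted at 2-fold or more. Where 1 array was dim, its value was replaced by the lowest well-above-background signal there, or by the dim signal itself if higher, and the result is called a bound. It is written "at least" only in the former case, since a dim signal is no firm limit. Each of the 6 groups had 1 array of RNA pooled from 3 samples, so no p-value was computed, and precision is limited by the number of arrays.

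The members, the lists and the settings were chosen with earlier results of these data known. All 41 members are named by role. Values on every array are given for the members with the largest and smallest difference of each role under the Pla2g3 label in coculture, for all members of roles of up to 3, and for the 3 highest and 3 lowest of each comparison. Genes outside the members were drawn from up to 3 highest and 3 lowest of each list past 2-fold, together with Pla2g3 and Lpar1, and subunits of shared complexes. The levels of Lpar1 were -2.84 and -2.85 without fibroblasts, -4.34 and -4.14 in the wild-type cocultures, -3.58 in the coculture labelled Pla2g3-/- and -3.89 on Lpar1-/- fibroblasts. Alternatives covered the background correction (limma 3.58.1 normexp, offset 50, with quantile normalization, in R 4.3.3), the scaling, the filter on dim probes, the choice of probe, the 2-fold limit, the wild-type coculture used and the deposited table. Scripts ran in Python 3.11.15 and were tested on simulated data. One result of the fork and damage checkpoint list, for 1 gene, is not reported here.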

Additional observations from a re-analysis of the deposited data

Results flagged for a closer look

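The coculture difference had opposite directions under the mast cell labels for the median of the replication genes and, past 2-fold on both sides, for 8 of the 41. The median of the 41 genes was 1.03 in Pla2g3+/+ cells and -0.55 in cells labelled Pla2g3-/-, and the median of the difference between both effects was -1.69. The difference between the effects was -3.16 in Orc1, -3.12 in Tk1, -2.85 in Rrm2 and -2.71 in Gins2. It was -2.70 in Pole, -2.59 in Gins1, -2.57 in Mcm5 and -2.41 in Uhrf1. Each of these 8 genes was higher with coculture in Pla2g3+/+ cells and lower in cells labelled Pla2g3-/-, by its brightest probe. For Pole, a second probe went the same way (1.01 and -1.91), and a dim one was higher under both labels (0.82 and 1.01).

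The same held for 15 of 120 genes of the 5 other cell cycle lists, and Cdkn1b, which encodes the inhibitor p27, was the only one of these 120 to pass in the opposite order, with 2.26. The mitosis list held 9 of the 15, with -2.86 in Top2a, -2.75 in Bub1, -2.71 in Ube2c, -2.62 in Nusap1, -2.54 in Foxm1, -2.51 in Ccnb2, -2.46 in Cenpf, -2.36 in Ccnb1 and -2.32 in Cdk1. Among the other replication genes the difference was -3.07 in Asf1b, -2.82 in Dscc1 and -2.67 in Ticrr. In G1 and S phase control it was -2.53 in Ccna2 and -2.40 in E2f2, and in the fork and damage checkpoint -3.0003 in Brca1. Over all genes, 116 of 21818 were higher in the former and lower in the latter. Each group had 1 array, so none of these differences was tested.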

How the results depend on the processing

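No paired analysis was possible because each group had 1 array. Over the comparisons and alternatives, 195 of the medians and counts of the 41 genes stayed within the wild-type spread or within 1.5 times, 6 moved and 0 reversed. Counts could only stay or move, and a median could count as reversed only if its main size was at least 0.29. Some of these outcomes were fixed in advance. No median could change at 1.5-fold, and the deposited table holds the same intensities scaled by nearly the same constants. Scaling by the median of each array moved the coculture difference under the Pla2g3-/- label from -0.55 to -0.94, with 18 genes lower in place of 10. That scaling moves the all-gene median of this comparison from 0.12 to -0.26, and that of the coculture comparison in Pla2g3+/+ cells from 0.13 to -0.14. With 1.5-fold in place of 2-fold, 18 genes were lower in that comparison (15.6% of all genes, against 7.29% at 2-fold), 1 (Rfc2) was higher under the Pla2g3-/- label in coculture, 1 (Rfc2) was higher with fibroblast Lpar1, and 1 (Ccne2) was lower between the wild-type cocultures. Of the values of single members, 894 stayed and 84 moved, 40 of these under median scaling, and 0 reversed. A change of sign counted as reversed only for a member past 2-fold in the main setting. Smaller differences could change sign and still count as stayed or moved. Only the 12 members with several probes could change under the mean of probes, and the deposited table nearly repeats the main values. The median difference ranged from -1.66 to -1.38 under the Pla2g3 label in coculture, from -1.92 to -1.49 with fibroblast Lpar1, and from 0.76 to 1.03 with coculture in Pla2g3+/+ cells. Scaling on reference genes was chosen after seeing the data. Over all genes past 2-fold, the share that was higher changed with the scaling: 63.4% with coculture in Pla2g3+/+ cells (48.8% after quantile and 43.3% after median scaling), 61.0% under the Pla2g3-/- label (50.2% and 29.8%), and 56.1% with fibroblast Lpar1 (43.4% after median scaling). Between the wild-type cocultures it was 82.7%, 46.0% after quantile scaling and 100% after normexp, where 4 genes passed 2-fold upward and 0 downward, against 191 and 40 without it. Single arrays of pooled RNA, the slide shared by the cocultures, fibroblast RNA in every coculture and the brightness of Ccne2 limit what these values show.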
